A study of Homo sapiens with 9 samples.

Results

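The genes described here are the well-expressed members of the numbered ZNF family, which encode zinc finger proteins, in a small cell lung cancer line treated with the BET inhibitor JQ1. They were chosen by their symbol and their measured level: the rows whose symbol is ZNF followed by a number and at most 1 letter, and whose normalized read count averaged at least 1000 over all 9 libraries. Of 469 such ZNF rows among 17518 genes, 243 reached that level and 226 did not. COR-L279 is an established human line of the SCLC-N subtype, the class of small cell lung cancer that depends on the neurogenic factor NEUROD1. Its cells, wild type in all groups, were kept for 24 h in DMSO, the vehicle, in 0.5 µM JQ1 or in 1.5 µM JQ1. Each group had 3 libraries of total RNA, called biological replicates in the labels. All results are from this 1 line, and nothing in the sources used here says whether the replicates came from separate cultures, so the p-values measure the spread between these libraries, which may be technical in part.

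Proteins of this family carry C2H2 zinc fingers, short folds held by a zinc ion, which usually stand in a row and bind DNA, although some bind RNA or proteins. Many also carry a KRAB domain, which recruits the co-repressor TRIM28 and, through it, the H3K9 methyltransferase SETDB1 and HP1 proteins, and silences the bound DNA, often a remnant of a retroelement. KRAB genes arose by repeated duplication and lie side by side in large groups, most of all on chromosome 19, where they are known to be covered by H3K9 trimethylation themselves. JQ1 displaces the BET proteins from acetylated histones and so lowers transcription of genes that depend on them.

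The libraries held 60721187 to 88482001 reads in genes. NEUROD1, which defines the labelled subtype, lay at 264 to 365 FPKM (fragments per length of transcript and per library depth), and the markers of the other subtypes lay at most at 0.1 (POU2F3) and 0.59 FPKM (YAP1). The leukocyte markers PTPRC and CD3E reached at most 0.02 and 0.01 FPKM. In 0.5 µM replicate 2, 65.8% of the members had the highest or lowest value of all 6 JQ1 libraries, and so did 60.8% of all genes tested. In the other libraries that stand apart, 0.5 µM replicate 3 and 1.5 µM replicates 1 and 2, H19 and SLC2A3 were high (H19 spans 1.04 to 2071 normalized counts over the 9 libraries), and 6.17% of the members, against 7.30% of all genes, parted these 3 libraries from the other 3 JQ1 libraries. The part of these differences in the results below was not tested, and the results for the members as a whole are given with and without these libraries. Between replicates, the standard deviation of a member was a median of 3.27% of its mean in DMSO, 5.46% at 0.5 µM and 2.46% at 1.5 µM.

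More of the well-expressed ZNF genes rose than fell under JQ1, in part through the way their level was set. At 0.5 µM, 124 of the 243 members (51.03%) were higher than in DMSO and 65 (26.7%) were lower at an adjusted p under 0.05 (limma, adjusted over all 17514 genes tested), where 35.3% of all genes were called higher and 34.7% lower. At 1.5 µM, 132 members (54.3%) were higher and 69 (28.4%) lower, against 36.9% and 36.2% of all genes. The median member changed by 0.16 on the log2 scale at 0.5 µM and by 0.18 at 1.5 µM, beside medians of -0.010 and -0.0030 over all genes tested. Level is what chose the members, and among all 9248 tested genes with a mean of at least 1000, 45.4% were higher and 35.1% lower at 1.5 µM, with a median of 0.07. The level is a mean over JQ1 as well as DMSO libraries, so a gene could reach it by rising: 25 members had a DMSO mean under 1000, and 24 of these were higher at 1.5 µM and none lower. Chosen instead by a DMSO mean of at least 1000, 228 ZNF genes gave 44.3% higher and 32.9% lower at 0.5 µM (median 0.06) and 47.4% and 34.6% at 1.5 µM (median 0.09). All 9284 tested genes with such a DMSO mean gave 41.2% and 35.5% at 0.5 µM (median 0.03) and 41.9% and 38.8% at 1.5 µM (median 0.03), shares close to those of the ZNF genes. Without 0.5 µM replicate 2 the calls were 132 higher and 62 lower at 0.5 µM, and 135 and 75 at 1.5 µM. The shares of all genes in that fit are not given here. Its member medians were 0.17 and 0.18, beside 0.00097 and -0.0030 for all genes. Without the 3 libraries high in H19 the member medians were 0.13 at 0.5 µM and 0.18 at 1.5 µM, beside -0.013 and -0.0042 for all genes. That fit leaves 1 library at 1.5 µM and assumes that it varies like the rest.

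The changes were small for most members. Only 8 members rose and 9 fell at least 2-fold at 1.5 µM, together 6.996% of them, where 18.8% of all genes tested and 8.14% of those with a mean of at least 1000 did so. The members ran from -2.47 (ZNF618) to 1.21 (ZNF697) on the log2 scale, and the 10th and 90th percentiles were -0.44 and 0.73. At 0.5 µM no member rose and 4 fell by 2-fold or more, where 14.9% of all genes did so in either direction. The JQ1 and DMSO libraries did not overlap for 76.5% of the members at 0.5 µM and for 89.3% at 1.5 µM, against 72.6% and 81.7% of all genes. Both JQ1 comparisons share the 3 DMSO libraries, so their calls are given side by side. In all, 121 members were higher at both doses (33.2% of all genes were) and 62 lower at both (31.9% of all genes). A further 11 rose and 7 fell at 1.5 µM alone, 3 rose and 3 fell at 0.5 µM alone, and 36 passed at neither dose, while none was called in opposite directions. The labels name no spike-in, so all fold changes are set against the other transcripts of the library, and a change of total RNA per cell is not seen in them. In bulk libraries, fewer cells with a transcript and less of it per cell cannot be told apart.

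**Figure D1:**
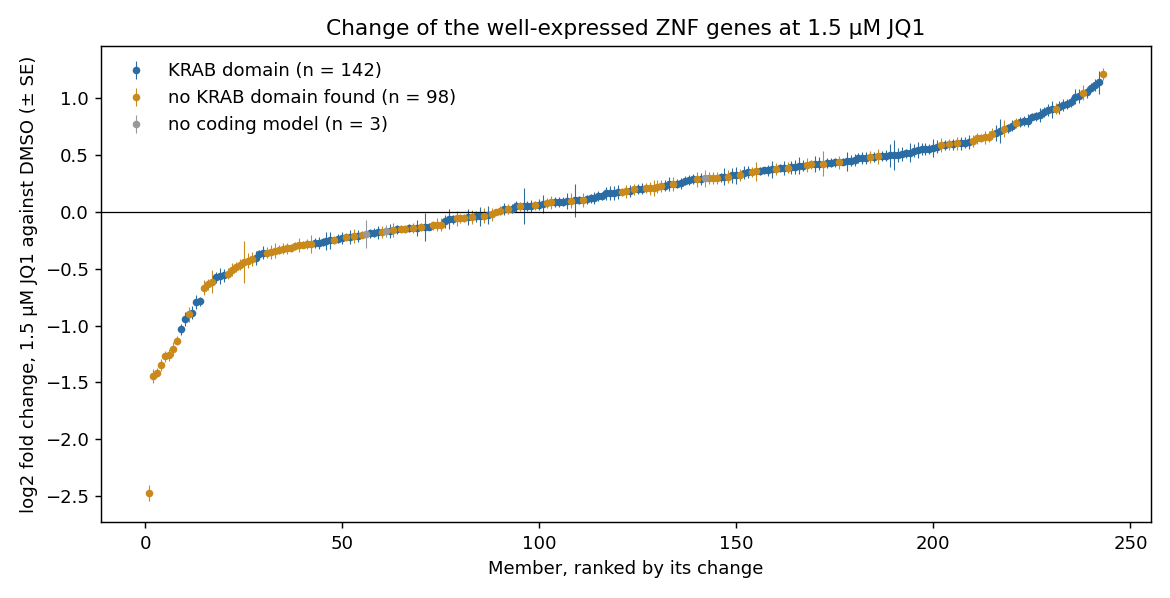
Log2 fold change of each of the 243 members at 1.5 µM JQ1 against DMSO (vertical axis), ordered from the lowest to the highest (horizontal axis); points are colored by the presence of a KRAB domain and bars are standard errors of the fit. The right side, above 0, is longer than the left side and is mostly made of KRAB genes, while most of the lowest points have no KRAB domain.

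Of the 132 members that rose at 1.5 µM, 92 carry a KRAB domain. Such a domain was found in the coding models of 142 members, and 98 members had none (3 had no coding model: ZNF252P, ZNF271 and the ZNF8 row). Of the KRAB members, 84 were higher and 24 lower at 0.5 µM (median 0.21), against 92 and 27 at 1.5 µM (median 0.31). Of the members without KRAB, 40 were higher and 41 lower at 0.5 µM (median -0.0070), and 39 and 41 were so at 1.5 µM (median -0.028). At 1.5 µM, 64.8% of the KRAB members were higher and 19.01% lower, and of the members without KRAB 39.8% and 41.8%. All genes tested gave 36.9% and 36.2%, and those with a mean of at least 1000 gave 45.4% and 35.1%. Beside the latter, members without KRAB had fewer rises and more falls (median -0.028 against 0.07). The difference between the classes was not itself tested. The KRAB class includes members with a DMSO mean under 1000, which reached the level through JQ1. With a DMSO mean of at least 1000, the 67 KRAB members of chromosome 19 divided 49 higher to 5 lower at 1.5 µM. The 55 on other chromosomes divided 23 to 22. Those without KRAB divided 2 to 14 on chromosome 19 (18 genes) and 33 to 27 elsewhere (75 genes). With the classes from a stricter sequence pattern, which finds KRAB in 120 members, 84 of these rose and 19 fell at 1.5 µM. In the libraries, the KRAB members together took 0.368%, 0.376% and 0.378% of all counts in DMSO, 0.415%, 0.410% and 0.415% at 0.5 µM, and 0.423%, 0.429% and 0.427% at 1.5 µM. Each JQ1 library lay above each DMSO library, and each 1.5 µM library above each 0.5 µM library. These sums hold the members that reached the level only by rising, so part of this order comes with the way the members were chosen. The members without KRAB moved the other way, from 0.519%, 0.524% and 0.535% of counts in DMSO to 0.499%, 0.497% and 0.502% at 0.5 µM and 0.488%, 0.494% and 0.492% at 1.5 µM.

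Most of the KRAB genes that rose lie on chromosome 19. It holds 101 of the members, 82 of them with KRAB. Of these 82, 59 were higher and 6 lower at 0.5 µM (72.0% and 7.32%, median 0.31), and 64 and 5 at 1.5 µM (78.05% and 6.10%, median 0.39), beside 36.9% and 36.2% of all genes at 1.5 µM. The 67 of them with a DMSO mean of at least 1000 gave 49 higher and 5 lower at 1.5 µM (73.1% and 7.46%, median 0.32). Of the 60 KRAB members on other chromosomes, 25 were higher and 18 lower at 0.5 µM (41.7% and 30.0%, median 0.04, and -0.012 with upper-quartile scaling), and 28 and 22 at 1.5 µM (46.7% and 36.7%, median 0.08). Of the 19 members on chromosome 19 without KRAB, 3 were higher and 13 lower at 0.5 µM, against 2 and 14 at 1.5 µM, with medians of -0.23 and -0.35. The 79 members without KRAB on other chromosomes divided 37 to 28 and 37 to 27, with medians of 0.10 and 0.08. Leaving out the 3 libraries high in H19 leaves replicate 3 alone at 1.5 µM. In it the median KRAB member of all chromosomes lay 0.33 above its DMSO mean on the log2 scale, where the median gene lay at -0.0041. The split by chromosome is not given for it. The KRAB proteins have more fingers, with a median of 12 against 7, over a span of 0 to 33 among all members. From few to many fingers the shares followed no single order: at 1.5 µM, 13 of the 26 members with 1 to 3 fingers were higher, 32.4% of those with 4 to 6, 55.3% with 7 to 9, 59.6% with 10 to 12, 64.3% with 13 to 16 and 58.8% with more.

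**Figure D2:**
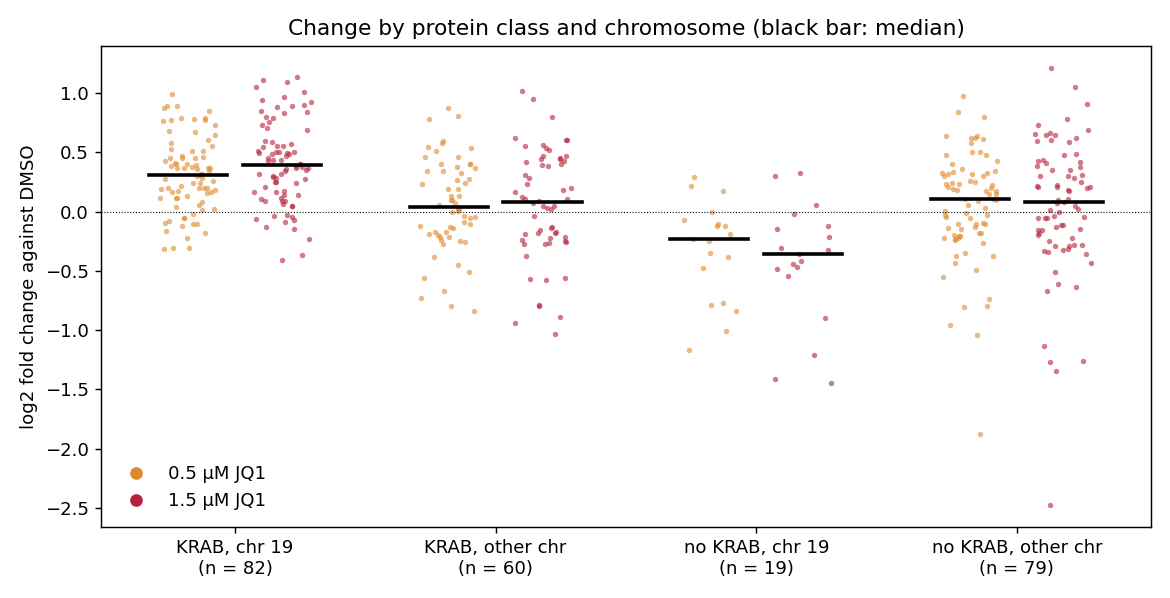
Log2 fold changes against DMSO (vertical axis) of the members at 0.5 µM and 1.5 µM JQ1, by KRAB domain and chromosome (horizontal axis); each point is 1 gene and the black bar is the median. The 82 KRAB genes of chromosome 19 are mostly above 0 (medians 0.31 and 0.39) and the 19 genes there without KRAB mostly below (medians -0.23 and -0.35).

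Most KRAB genes that stand next to each other rose. In the annotation, 131 members stand next to at least 1 other ZNF gene, and such an unbroken row of ZNF genes is called a run here. Of the 111 KRAB members in runs, 77 rose and 15 fell at 1.5 µM (69.4% and 13.5%, median 0.32), and of the 31 outside them 15 rose and 12 fell (48.4% and 38.7%, median 0.10), where all genes gave 36.9% and 36.2%. In the run from ZNF101 to ZNF493 on chromosome 19, which has 18 ZNF genes, all 13 members rose at both doses, by 0.32 to 1.05 at 1.5 µM (median 0.50). In the run from ZNF766 to ZNF320, also on chromosome 19, 8 of the 9 members rose at 0.5 µM and all 9 at 1.5 µM (0.12 to 1.14, median 0.79). Of the 5 genes of the run from ZNF91 to ZNF254, all of them members, 4 rose at both doses, and ZNF675 lay at -0.045 at 1.5 µM (adjusted p = 0.581). Outside chromosome 19, 5 of 6 members rose at both doses in the run from ZNF727 to ZNF117 on chromosome 7, and 3 of 3 in the run from ZNF605 to ZNF10 on chromosome 12. Not all runs rose: in the run from ZNF786 to ZNF746 on chromosome 7, 1 of 5 KRAB members was higher and 3 were lower at 1.5 µM, and the 3 members of the run from ZNF524 to ZNF581, none with KRAB, were all lower. Some members of these runs, among them ZNF493, ZNF701 and ZNF726, had DMSO means under 1000 and reached the level only through their JQ1 libraries. ZNF genes of a run that stayed under the level are not counted, so the counts in runs lean towards rises. Most runs with at least 3 members lie on chromosome 19, and the counts do not separate runs from chromosome. On other chromosomes the KRAB members, in runs or not, divided 28 higher to 22 lower at 1.5 µM. Genes of a run are near copies of each other, so reads of 1 may have been given to another, and the members of a run are not independent measurements.

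**Figure D3:**
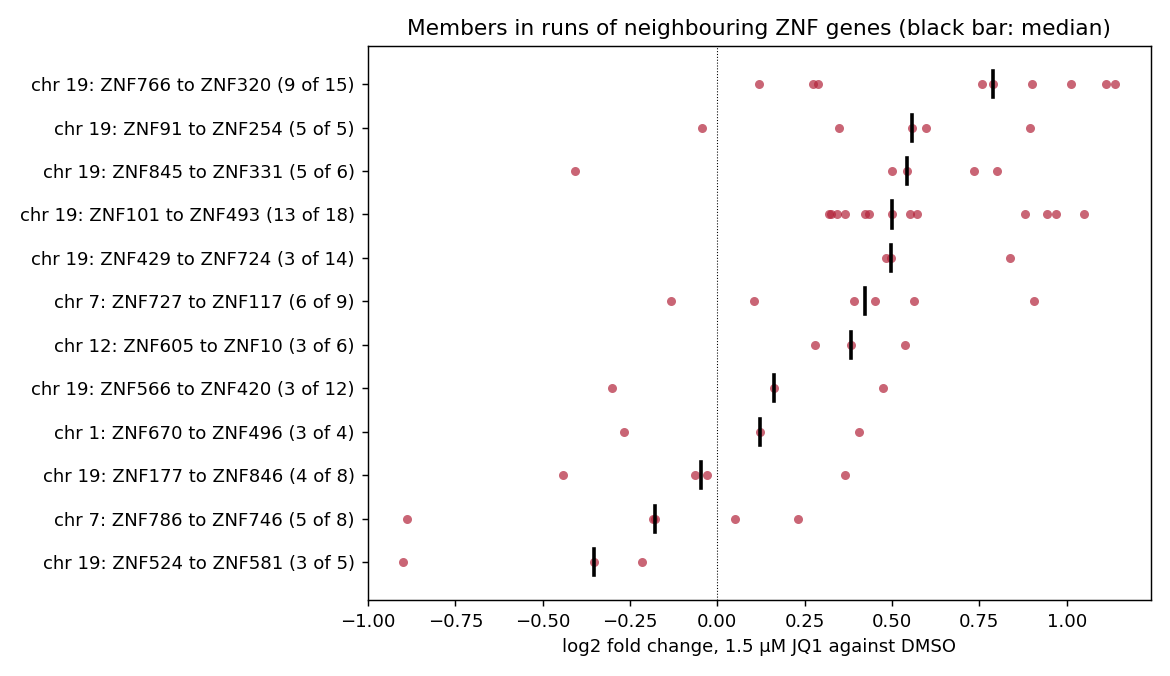
Log2 fold change at 1.5 µM JQ1 against DMSO (horizontal axis) for the members in runs of neighbouring ZNF genes that hold at least 3 members; each row is a run with its first and last gene and its number of members of all its ZNF genes, each point is a gene, and the black bar is the run's median. The 5 highest medians are those of runs on chromosome 19, and the run from ZNF101 to ZNF493 has all 13 points above 0.

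ZNF697 (ENSG00000143067.4) had the largest rise of all members, and it carries 11 fingers and no KRAB domain. It held 973, 1012 and 947 normalized counts in DMSO, 1995, 1762 and 2013 at 0.5 µM and 2218, 2295 and 2293 at 1.5 µM. Every JQ1 library was above every DMSO library, and the 2 dose groups did not overlap. The log2 fold change was 0.97 ± 0.055 (SE, adjusted p = 9.62e-08) at 0.5 µM and 1.21 ± 0.055 (SE, adjusted p = 1.21e-08) at 1.5 µM, a 2.32-fold rise. Next came ZNF611 (ENSG00000213020.4) and ZNF701 (ENSG00000167562.7), 2 KRAB genes of the run from ZNF766 to ZNF320. ZNF611 held 1076, 1248 and 1222 in DMSO, 2258, 1844 and 2507 at 0.5 µM and 2429.6, 2703 and 2666 at 1.5 µM. Both doses stood clear of DMSO, while 0.5 µM replicate 3 reached into the range of 1.5 µM. ZNF701 held 604, 641 and 628 in DMSO, 1165, 1115 and 1203 at 0.5 µM and 1324, 1314 and 1419.8 at 1.5 µM, 3 groups without overlap. ZNF697, ZNF701 and, below, ZNF333 and ZNF493 had DMSO means of 978, 624, 790 and 813 and reached the level only through their JQ1 libraries. The same holds for other rises named further below, among them ZNF347 and ZNF726, whose DMSO means were under 1000 too. The fitted changes at 1.5 µM were 1.14 ± 0.10 (SE, adjusted p = 2.3e-06) for ZNF611 and 1.11 ± 0.052 (SE, adjusted p = 1.39e-08) for ZNF701.

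The promoters of these 3 genes are shown since they lead the rises and ZNF611 and ZNF701 moved together; each runs 5′ to 3′ on the gene's strand from 250 bases before to 50 bases after the start, from RefSeq on GRCh38.p14. Capitals mark the motifs searched on both strands: GGGCGG (or CCGCCC, its reverse complement), the GC box that SP factors bind, CCGGAAG, an ETS-type site, and ACTACAA and a second block of 10 letters, both parts of the ZNF143 site (the block was searched in its 2 usual spellings). The windows are at chr1:119648217-119648516, minus strand, chr19:52734995-52735294, minus strand, and chr19:52570037-52570336, plus strand, in this order.
ZNF697: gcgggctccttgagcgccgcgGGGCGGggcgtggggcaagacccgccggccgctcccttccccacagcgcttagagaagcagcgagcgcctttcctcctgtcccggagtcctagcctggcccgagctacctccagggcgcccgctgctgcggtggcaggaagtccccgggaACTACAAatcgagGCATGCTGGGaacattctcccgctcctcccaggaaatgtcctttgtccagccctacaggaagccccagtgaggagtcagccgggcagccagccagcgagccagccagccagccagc
ZNF611: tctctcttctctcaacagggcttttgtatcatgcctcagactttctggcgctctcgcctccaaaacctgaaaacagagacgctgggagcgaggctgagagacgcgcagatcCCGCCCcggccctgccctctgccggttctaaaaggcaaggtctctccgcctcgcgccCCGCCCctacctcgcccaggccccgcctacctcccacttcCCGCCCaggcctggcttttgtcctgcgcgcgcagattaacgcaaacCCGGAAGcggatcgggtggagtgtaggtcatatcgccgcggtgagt
ZNF701: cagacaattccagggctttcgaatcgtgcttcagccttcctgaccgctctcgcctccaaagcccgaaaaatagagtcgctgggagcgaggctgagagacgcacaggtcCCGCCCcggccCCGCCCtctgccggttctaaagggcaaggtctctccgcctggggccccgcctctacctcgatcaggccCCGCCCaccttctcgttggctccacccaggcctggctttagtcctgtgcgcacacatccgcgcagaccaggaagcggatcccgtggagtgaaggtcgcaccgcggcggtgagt
In a global alignment ZNF611 and ZNF701 shared 246 of 305 columns (80.7%), and no other pair of the promoters printed here shared more than 50.8%. ZNF697 holds 1 GC box, ACTACAA on the gene's strand 79 bases before the start, and the second block on the opposite strand 66 bases before it. The 2 parts of the ZNF143 site thus do not run in the same direction there. ZNF611 has 3 GC boxes and a CCGGAAG 5 bases after the start, and ZNF701 has 3 GC boxes and no CCGGAAG in this window.

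The other members among the 12 largest rises at 1.5 µM were ZNF333, ZNF493, ZNF280C, ZNF445, ZNF28, ZNF682, ZNF33B, ZNF737 and ZNF627, from 1.09 down to 0.92, and all but ZNF280C and ZNF697 carry KRAB. ZNF333 held 783, 792 and 796 in DMSO, 1434, 1403 and 1439 at 0.5 µM and 1703, 1735 and 1619 at 1.5 µM, rising at each step. ZNF493, the last gene of the run that starts with ZNF101, held 769, 831 and 840.2 in DMSO, 1590.5, 1688 and 1577 at 0.5 µM and 1684, 1722 and 1649 at 1.5 µM. It was already near its full change at 0.5 µM, where its fold change of 1.99 was the largest rise of any member, and the 2 doses overlapped. ZNF280C, known to act in the repair of DNA breaks, held 1649.7, 1683 and 1853 in DMSO, 3148, 2839.6 and 3291 at 0.5 µM and 3321, 3747 and 3668 at 1.5 µM, with the doses apart from DMSO and from each other. ZNF445, which keeps parental imprints together with ZFP57, held 2711, 2890.2 and 3085 in DMSO, 5281, 4569.9 and 5336 at 0.5 µM and 5714, 5969.7 and 5895 at 1.5 µM. Its log2 fold change was 1.02 ± 0.064 (SE, adjusted p = 1.36e-07) at 1.5 µM, and the groups did not overlap. At 0.5 µM, the 4 largest rises outside these 12 were those of ZNF117, ZNF681, ZNF720 and ZNF347, at 0.80, 0.79, 0.78 and 0.78, and all 4 stayed higher at 1.5 µM (0.91, 0.90, 0.80 and 0.85). For ZNF33B a second row of the table under the same symbol has a mean of 110.4, against 2431 for the row used here. ZNF668, ZNF747 and ZNF8 have such second rows as well.

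ZNF618 (ENSG00000157657.10), known as a partner of UHRF2 in reading hydroxymethylated DNA, had the largest fall. It held 6917, 7057 and 7936 normalized counts in DMSO, 2018, 1825 and 2124 at 0.5 µM and 1247, 1337 and 1356 at 1.5 µM. The 3 groups were far apart, with every DMSO library well above every JQ1 library. The log2 fold change was -1.88 ± 0.067 (SE, adjusted p = 5.11e-09) at 0.5 µM and -2.47 ± 0.067 (SE, adjusted p = 4.98e-10) at 1.5 µM, and the 1.5 µM level was 0.180 of that in DMSO. ZNF541 (ENSG00000118156.8), known for its part in meiosis in the testis, held 1817, 1781 and 1847 in DMSO, 817, 860.4 and 747 at 0.5 µM and 648, 695 and 658 at 1.5 µM. ZNF358 (ENSG00000198816.5) held 4026, 3922 and 3935 in DMSO, 1959.8, 1976 and 1981 at 0.5 µM and 1569, 1455 and 1434 at 1.5 µM. For both genes each step of dose lay lower and no groups overlapped, with log2 fold changes at 1.5 µM of -1.44 ± 0.058 (SE, adjusted p = 5.12e-09) and -1.41 ± 0.04 (SE, adjusted p = 6.06e-10).

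The promoters of ZNF541 (chr19:47573099-47573398, minus strand) and ZNF358 (chr19:7515853-7516152, plus strand), 2 genes of chromosome 19 without KRAB, are shown as counterparts from among the falls, with the same source, window and capitals.
ZNF541: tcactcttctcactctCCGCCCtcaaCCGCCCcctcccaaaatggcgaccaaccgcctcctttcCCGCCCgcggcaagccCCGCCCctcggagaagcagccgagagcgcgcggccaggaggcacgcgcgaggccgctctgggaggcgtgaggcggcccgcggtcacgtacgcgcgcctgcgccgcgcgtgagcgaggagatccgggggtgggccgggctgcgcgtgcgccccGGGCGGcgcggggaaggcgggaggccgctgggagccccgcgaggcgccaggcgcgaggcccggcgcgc
ZNF358: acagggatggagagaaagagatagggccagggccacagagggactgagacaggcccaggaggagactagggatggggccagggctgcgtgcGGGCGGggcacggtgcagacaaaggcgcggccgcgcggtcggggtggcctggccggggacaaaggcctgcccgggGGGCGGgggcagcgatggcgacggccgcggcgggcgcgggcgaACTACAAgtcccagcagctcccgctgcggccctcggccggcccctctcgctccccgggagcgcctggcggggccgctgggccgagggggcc
ZNF541 has 5 GC boxes, and ZNF358 has 2 and an ACTACAA 41 bases before the start. Their GC content was 78.3% and 76.3%, against 68.7%, 63.0% and 65.0% for ZNF697, ZNF611 and ZNF701.

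The other members among the 12 largest falls were ZNF827, ZNF532, ZNF219, ZNF579, ZNF395, ZNF689, ZNF343, ZNF581 and ZNF783, from -1.35 to -0.89 at 1.5 µM, and 3 of the 12 (ZNF689, ZNF343 and ZNF783) carry KRAB. ZNF827, which brings the NuRD complex to telomeres, held 1614, 1699 and 1804 in DMSO, 805, 853 and 823 at 0.5 µM and 640.1, 671 and 698 at 1.5 µM. ZNF532, part of the chromatin complex of ZMYND8 and a fusion partner of NUTM1 in NUT carcinoma, held 6997, 7492 and 7697 in DMSO, 4047, 4566 and 4194 at 0.5 µM and 3068, 3068 and 3052 at 1.5 µM. Both fell at each dose without overlap. ZNF219 held 2280.3, 2204 and 2301 in DMSO, 1129.8, 1157 and 1201 at 0.5 µM and 1019, 917 and 902 at 1.5 µM. ZNF579 held 1872, 1822 and 1774 in DMSO, 1085, 1014 and 958 at 0.5 µM and 846, 741 and 782 at 1.5 µM. ZNF395 held 10089.6, 10339 and 10665 in DMSO, 5812, 5802 and 6163 at 0.5 µM and 4843, 4671 and 4672 at 1.5 µM. These 3 repeat the order of DMSO over 0.5 µM over 1.5 µM with no overlap, and so does ZNF689. ZNF343, ZNF581 and ZNF783 fell by 0.80, 0.78 and 0.73 on the log2 scale at 0.5 µM, and for each of them the 2 doses overlapped. At 0.5 µM, the 4 largest falls outside the 12 were those of ZNF121, ZNF462, ZNF202 and ZNF300. ZNF121 shows the weight of a single library: it held 4293, 4611 and 4377 in DMSO, 3155, 1741 and 3185 at 0.5 µM and 3121, 3339 and 3316 at 1.5 µM, and 0.5 µM replicate 2 was far below all others. Its log2 fold change at 0.5 µM was -0.77 (adjusted p = 0.00369) with that library and -0.48 without it, and at 1.5 µM it was -0.44 (adjusted p = 0.0523, and 1.61e-07 in the fit without that library).

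**Figure D4:**
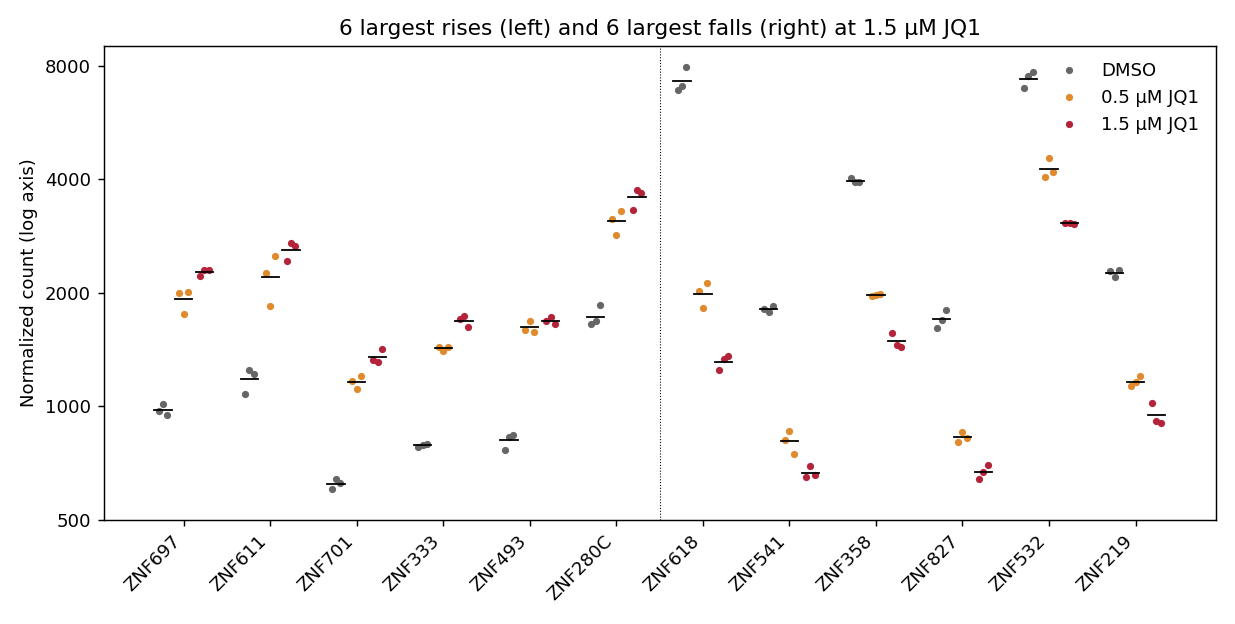
Normalized count per library (vertical log axis) of the 6 members with the largest rises and the 6 with the largest falls at 1.5 µM JQ1 (horizontal axis); points are the 3 libraries of each group and bars the group means. In all 12 genes the JQ1 libraries are clear of the DMSO libraries, and ZNF618 falls from 6917 or more in DMSO to 1356 or less at 1.5 µM.

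Between the doses, few members differed. At 1.5 µM against 0.5 µM, 17 members (6.996%) were higher and 13 (5.35%) lower at an adjusted p under 0.05, against 4.66% and 8.09% of all genes tested, and the median difference was 0.03. No member differed 2-fold between the doses, as 0.228% of all genes did. The libraries of the 2 doses did not overlap for 35.4% of the members and for 33.7% of all genes. The 17 were 13 KRAB genes, 12 of them on chromosome 19, and ZNF697, ZNF106, ZNF318 and ZNF236, which have no KRAB domain. Of the 13 lower ones, ZNF300 and ZNF689 carry KRAB. Among members that passed with no overlap between the doses, the largest rises were those of ZNF106, ZNF726, ZNF333 and ZNF28 (larger differences, up to 0.36 for ZNF543, did not pass). ZNF106, an RNA-binding protein, held 4678, 4927 and 5223 in DMSO, 5960.4, 5048 and 6048 at 0.5 µM and 7087, 7042 and 6653 at 1.5 µM. Without 0.5 µM replicate 2, the lowest of its group, ZNF106 was 0.28 above DMSO at 0.5 µM, against 0.20 with it, and the difference between the doses was 0.21. ZNF726 held 906, 861 and 852 in DMSO, 1080.03, 1044 and 1138 at 0.5 µM and 1331, 1325 and 1304 at 1.5 µM, rising in even steps without overlap. The differences between the doses were 0.29 ± 0.068 (SE, adjusted p = 0.0221) for ZNF106 and 0.28 ± 0.048 (SE, adjusted p = 0.00523) for ZNF726. The largest falls between the doses were ZNF618 (-0.60), ZNF532 (-0.48), ZNF358 (-0.41) and ZNF579 (-0.37). ZNF536, known to hold back neuronal differentiation, changed at the higher dose alone: it held 1163, 1176 and 1235 in DMSO, 1171, 1037 and 1206 at 0.5 µM and 912, 868 and 904 at 1.5 µM. Its 0.5 µM libraries overlapped DMSO, and its 1.5 µM libraries lay below both (-0.34 ± 0.061 SE, adjusted p = 0.00617 between the doses). Of the 121 members higher at both doses, 101 (83.5%) had the larger change at 1.5 µM, and of the 62 lower at both, 53 (85.5%), where all genes gave 77.5% and 82.2%. The call of ZNF106 was lost without 1.5 µM replicate 1 or 2 (adjusted p = 0.0761 and 0.084), and that of ZNF28 without any 1 of the DMSO or 1.5 µM libraries (0.062 to 0.137). Without 0.5 µM replicate 2 the difference of ZNF28 was 0.15, against 0.24 with it. The counts rest on few libraries too: without 0.5 µM replicate 2, 29 members were higher and 20 lower, and without the 3 libraries high in H19 none was higher and ZNF358 alone lower (0 and 90 of 17472 genes).

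Among the KRAB members with known targets, ZNF91, which silences SVA retrotransposons, held 2244, 2435 and 2486 normalized counts in DMSO, 3192, 3376 and 3229 at 0.5 µM and 3426, 3567 and 3533 at 1.5 µM. ZNF93, which silences a family of LINE-1 elements, held 1852, 1938 and 1876 in DMSO, 2299, 2741 and 2454 at 0.5 µM and 2549, 2694 and 2782 at 1.5 µM. Both genes were above DMSO in all 6 JQ1 libraries, and the doses overlapped for ZNF93 but not for ZNF91. The log2 fold changes at 1.5 µM were 0.56 ± 0.044 (SE, adjusted p = 9.29e-07) and 0.50 ± 0.061 (SE, adjusted p = 2.69e-05). ZNF202, a KRAB repressor known from genes of lipid metabolism, moved the other way, from 1620.2, 1721 and 1661 in DMSO to 1067, 1040.05 and 1035 at 0.5 µM and 942, 986 and 967 at 1.5 µM (-0.79). TRIM28, the co-repressor that KRAB domains bind, held 55709, 54398 and 54519 in DMSO, 78282, 66994 and 79201 at 0.5 µM and 85790.3, 82488 and 83644 at 1.5 µM, with log2 fold changes of 0.44 ± 0.056 (SE, adjusted p = 4.01e-05) and 0.61 ± 0.056 (SE, adjusted p = 2.57e-06). SETDB1 fell, from 3619, 3667 and 3644 in DMSO to 2838, 3115 and 2839 at 0.5 µM and 2619, 2745 and 2607 at 1.5 µM (-0.46 ± 0.043 SE, adjusted p = 3.32e-06 at 1.5 µM). Of the 40 co-repressor and heterochromatin genes listed with them, 16 rose and 17 fell at 0.5 µM (40% and 42.5%). At 1.5 µM, 17 rose and 19 fell (42.5% and 47.5%). All genes tested gave 35.3% and 34.7% at 0.5 µM, and 36.9% and 36.2% at 1.5 µM. Those with a mean of at least 1000 gave 44.6% and 31.9%, and 45.4% and 35.1%. The medians of the list were 0.013 and 0.024. Both were negative with FPKM values (-0.066 and -0.067) and with upper-quartile scaling (-0.041 and -0.026). MORC3 rose by 1.00 and CHD3, a NuRD helicase, fell by 1.06, the only 2 of the list that passed with a log2 change of 1 or more in size at 1.5 µM.

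Members with roles in chromatin and transcription moved in both directions. Of the 3 zinc finger proteins of the ZMYND8 complex, ZNF687 rose and ZNF532 fell, and ZNF592 passed at the higher dose but not at the lower. ZNF687 held 2461, 2476 and 2748 in DMSO, 4123, 3444 and 4232 at 0.5 µM and 4308, 4253 and 4189.6 at 1.5 µM, with a log2 fold change of 0.73 ± 0.073 (SE, adjusted p = 5.32e-06) at 1.5 µM. ZNF592 held 2415, 2359.9 and 2513 in DMSO, 2786, 2361 and 2717 at 0.5 µM and 2741, 2842 and 2834 at 1.5 µM, and passed at 1.5 µM (0.21 ± 0.059 SE, adjusted p = 0.00828) but not at 0.5 µM (0.11, adjusted p = 0.129), where replicate 2 overlapped DMSO. With that library left out it passed at 0.5 µM too (0.18, adjusted p = 0.000728). ZNF711, mutated in X-linked intellectual disability, held 6366, 6437 and 6420.2 in DMSO, 9379.98, 10728 and 9503 at 0.5 µM and 10123, 10405 and 10466 at 1.5 µM, a clear rise of 1.61-fold at 1.5 µM. ZNF292, a gene of neurodevelopmental disorders, rose by 0.48 and 0.59 on the log2 scale at the 2 doses, ZNF518A, which is tied to H3K9 methylation, by 0.50 and 0.59, and ZNF318 by 0.48 and 0.66. ZNF609, a partner of cohesin loading and Integrator, held 4359, 4542 and 5109.6 in DMSO, 5802, 5879 and 6231 at 0.5 µM and 5970.5, 6531 and 6404 at 1.5 µM, with all JQ1 libraries above DMSO. ZNF143, an activator at many promoters, rose by 0.24 and 0.23, and ZNF148, which binds GC-rich promoters, by 0.19 and 0.20, all 4 with adjusted p of at most 0.00495, but none of the 4 passed with FPKM values, and neither did ZNF592 at 1.5 µM (0.13, adjusted p = 0.131). Without the 3 libraries high in H19, the calls of ZNF148 and ZNF592 at 1.5 µM were lost (adjusted p = 0.0763 and 0.0843).

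Falling members of this kind were ZNF462, ZNF507, ZNF703, ZNF384, ZNF516, ZNF512B, ZNF639 and ZNF518B, besides ZNF618, ZNF827, ZNF532 and ZNF536. ZNF462, a chromatin protein of neural development with 33 fingers, the most of any member, held 1877, 2073 and 2319 in DMSO, 1328, 1047 and 1407 at 0.5 µM and 1352, 1368 and 1362 at 1.5 µM. All 6 JQ1 libraries were below the lowest DMSO library, with log2 fold changes of -0.73 (adjusted p = 0.000102) at 0.5 µM and -0.61 (adjusted p = 0.000333) at 1.5 µM. ZNF703, a co-repressor amplified in luminal breast cancer, held 3071, 3116 and 3072 in DMSO, 2382, 2031 and 2459.6 at 0.5 µM and 2279, 2217 and 2384 at 1.5 µM, with log2 fold changes of -0.43 and -0.43. ZNF507 fell by 0.48 on the log2 scale at 1.5 µM, ZNF384, a fusion partner in acute leukemia, by 0.32, ZNF516 by 0.28, ZNF512B by 0.25 and ZNF639 by 0.22. ZNF518B, related to ZNF518A, went the other way from it, at -0.24 (adjusted p = 0.00636) at 0.5 µM and -0.16 (adjusted p = 0.0425) at 1.5 µM. Its call at 1.5 µM was lost without DMSO replicate 2 or 3 or any 1 of the 1.5 µM libraries (adjusted p = 0.0529 to 0.142), and without the 3 libraries high in H19 (0.262). With FPKM values neither dose passed (adjusted p = 0.112 and 0.109). ZNF410, the activator of CHD4, held 5100.03, 4994 and 4869 in DMSO, 4869, 4526 and 4564 at 0.5 µM and 4509, 4655 and 4484 at 1.5 µM, a fall of 0.10 (adjusted p = 0.0327) and 0.13 (adjusted p = 0.00802). The call at 0.5 µM was lost without DMSO replicate 1 or 2 or 0.5 µM replicate 2 or 3 (adjusted p = 0.0534 to 0.109). CHD4 itself lay at log2 fold changes of -0.19 (adjusted p = 0.0029) at 0.5 µM and -0.12 (adjusted p = 0.0327) at 1.5 µM. ZNF652, a repressor that works with CBFA2T3, rose at 1.5 µM (0.42 ± 0.11 SE, adjusted p = 0.00574), and ZNF451, a SUMO ligase, rose at both doses (0.21 and 0.29), the lower of which was lost without DMSO replicate 1 or 0.5 µM replicate 1 or 3 (adjusted p = 0.061 to 0.079). At 0.5 µM ZNF652 held 2998, 2195 and 3171 against 2322, 2429.9 and 2590.1 in DMSO, and its second library lay below DMSO while the others lay above. Without that library its change at 0.5 µM was 0.33, and with it 0.17 (adjusted p = 0.196). Without the 3 libraries high in H19, ZNF516, ZNF410 and ZNF652 did not pass at 1.5 µM (adjusted p = 0.0893, 0.0692 and 0.0525).

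Several members act on RNA, on ribosomes or at the spindle. ZNF598, the ubiquitin ligase that marks collided ribosomes, held 6821, 6594 and 6806 normalized counts in DMSO, 5567, 5692 and 5601 at 0.5 µM and 5516, 5358 and 5686 at 1.5 µM. ZNF593, which helps to build the large ribosomal subunit, held 1436, 1400.4 and 1306 in DMSO, 1013, 1056 and 879 at 0.5 µM and 868, 879 and 862 at 1.5 µM. Both fell without overlap with DMSO, ZNF598 by 0.29 and ZNF593 by 0.67 on the log2 scale at 1.5 µM. ZNF622, also a factor of the large ribosomal subunit, fell by 0.11 (adjusted p = 0.0315) and 0.15 (adjusted p = 0.00494), the former lost without DMSO replicate 1 or 2 or 0.5 µM replicate 1 or 3 (adjusted p = 0.0817 to 0.107) and the latter without the 3 libraries high in H19 (adjusted p = 0.0538). ZNF326, which links splicing to elongation, fell by 0.20 at 1.5 µM. ZNF638, which acts in splicing and in silencing of retroviral DNA, rose from 8261, 8523 and 8479.6 in DMSO to 10131, 11362 and 10118 at 0.5 µM and 10624, 10878 and 10758 at 1.5 µM (0.35 ± 0.044 SE, adjusted p = 2.93e-05). ZNF207, a spindle protein also called BuGZ, held 16439.8, 16198 and 16379.7 in DMSO, 15793, 16716 and 16025 at 0.5 µM and 16047, 16271 and 16675 at 1.5 µM, and the 3 groups overlapped throughout. Its log2 fold changes were -0.015 (adjusted p = 0.677) at 0.5 µM and -0.00086 (adjusted p = 0.981) at 1.5 µM, with standard errors of 0.03. ZNF346, which binds double-stranded RNA, lay at -0.024 (adjusted p = 0.731) at 0.5 µM and -0.11 (adjusted p = 0.112) at 1.5 µM.

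Set side by side per length, as FPKM, the members covered 1.96 to 112 with a median of 10.2, and the highest were ZNF706, ZNF207, ZNF664, ZNF146, ZNF428 and ZNF622. ZNF706, which encodes a short protein with 1 finger, held 114 ± 3.83 FPKM in DMSO (SD, n = 3) and 109.7 ± 2.26 at 1.5 µM. ZNF207 held 113 ± 0.993 and 107 ± 2.27 FPKM, within the spread of ZNF706, and ZNF664 held 96.5 ± 2.35 and 106 ± 2.11. Below these 3 came ZNF146 at 82.2 ± 2.03 and 53.6 ± 2.00 FPKM, ZNF428 at 54.6 ± 4.20 and 65.8 ± 0.485, and ZNF622 at 64 ± 1.08 and 55.4 ± 1.96. None of the 6 carries a KRAB domain. Changes are read from the normalized counts, where ZNF706 lay at 0.096 and ZNF207 at -0.00086 (log2) at 1.5 µM, and neither passed. With FPKM values the median over all genes was itself -0.055 at that dose. ZNF146, a protein of 10 fingers and little else, fell from 14559.9, 15019.6 and 14498 normalized counts in DMSO to 10418, 11412 and 9952 at 0.5 µM and 9983, 10223 and 10056 at 1.5 µM (-0.54 ± 0.045 SE, adjusted p = 1.28e-06 at 1.5 µM). ZNF664, the member with the most counts, rose from 25528, 25801 and 26468 in DMSO to 28980.3, 30596 and 28592 at 0.5 µM and 28540.1, 29736 and 29424 at 1.5 µM (0.17). ZNF428 rose by 0.29 and 0.30 at the 2 doses. Each of these 3 genes was clear of DMSO at both doses, with the doses overlapping.

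The 36 members that passed at neither dose include ZNF706 and ZNF207 and, among those with known roles, ZNF24, ZNF131, ZNF281, ZNF335, ZNF346 and ZNF644. ZNF24, a SCAN protein needed for myelination, held 8108, 8586 and 8659 in DMSO, 8838, 9398 and 8734 at 0.5 µM and 8331, 8653 and 8538 at 1.5 µM, with a log2 fold change of 0.089 (adjusted p = 0.0592) at 0.5 µM. ZNF281, a factor of pluripotency networks, held 2713, 2879 and 2964 in DMSO, 2838, 2916 and 2817 at 0.5 µM and 2884, 2971 and 2996 at 1.5 µM, and ZNF335, a gene of microcephaly, 2618, 2651 and 2729 in DMSO, 2598, 2652 and 2920.5 at 0.5 µM and 2684, 2729.7 and 2714 at 1.5 µM. The groups overlapped in both. Some of these calls turn with the setting. Without 0.5 µM replicate 2, ZNF346 (-0.11, adjusted p = 0.0292) and ZNF131 (-0.057, adjusted p = 0.0436) passed as lower at 1.5 µM. ZNF706 (0.096, adjusted p = 0.0121) passed as higher in that fit. ZNF346 passed at 1.5 µM with FPKM values as well (0.0128), and ZNF24 passed at 0.5 µM without 0.5 µM replicate 3 (0.0401). With upper-quartile scaling, ZNF644 passed at both doses (0.0243 and 0.016) and ZNF207 at 0.5 µM (0.0447). ZNF131 held 5922, 6117 and 5933 in DMSO, 6039, 7371 and 5924 at 0.5 µM and 5688, 5793 and 5789 at 1.5 µM, where the high value is again 0.5 µM replicate 2. ZNF644, which guides the H3K9 methyltransferases G9a and GLP with WIZ, lay at -0.046 (adjusted p = 0.304) at 0.5 µM and -0.057 (adjusted p = 0.203) at 1.5 µM. Members just inside the level of 1000 were ZNF669, ZNF414, ZNF101, ZNF347 and ZNF440 (means of 1006 to 1026), and those just outside were ZNF554, ZNF614, ZNF529, ZNF79 and ZNF670 (997 down to 986). The shares called were close to these under other levels: with a level of 500, 54.7% of 351 genes were higher and 27.1% lower at 1.5 µM, and with 2000, 53.4% and 31.4% of 118.

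RefSeq promoters of the window described above were found for 216 of the 243 members. The ETS-type letters CCGGAAG stood in 99 of them (45.8%), on either strand, against 18.01% of the 10716 promoters of genes tested and 10.7% of all 27305 promoters. They were in 55.04% of 129 KRAB promoters and in 32.2% of the 87 others. Of the 99 members with CCGGAAG, 59 were higher and 21 lower at 1.5 µM, where all members gave 54.3% and 28.4% and all genes tested 36.9% and 36.2%. Their median log2 fold change was 0.29, and that of members without it 0.11. Of these 99, 71 carry KRAB and 28 are among the others. The changes were not divided by the letters within each class, so a part of the letters beside the domain was not tested. GC boxes (GGGCGG) stood in 68.1% of the members and 69.1% of the tested genes. The letters ACTACAA and the 10-letter block of the ZNF143 site stood in 6.94% and 2.78% of the members against 3.72% and 0.77% of the tested genes. Of the 15 members with ACTACAA, 4 rose and 7 fell at 1.5 µM, beside 36.9% and 36.2% of all genes tested. The MYC-type E-box CACGTG was in 5.56% (9.97% of tested genes), the NEUROD1-type E-box CAGATG in 11.6% (9.64%), AAGATGG, the YY1 letters, in 6.48% (7.36%), the NRF1 motif in 2.31% (2.19%) and TATAAA in 4.63% (5.67%). Related KRAB genes share promoter sequence by descent, as ZNF611 and ZNF701 show, so these promoters are not independent, and a match in letters does not show that a factor binds. In all, 176 of 242 members with an entry in GENCODE 29 overlap another gene, and with the strand setting of the counting not given in the sources used here, their values may hold reads of that gene. The 66 members that overlap none divided 33 higher to 20 lower at 1.5 µM.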

How the data were processed

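RNA of COR-L279 cells was extracted with RNeasy columns and made into stranded total RNA libraries, per the labels' protocols. Per the submitters' processing notes, the tools were cutadapt, STAR and RSEM and the build hg19, with no roles or versions given. The authors deposited a signal per gene, the normalized counts (counts divided by size factors, per the file headers), for 17518 genes and, per library, FPKM values for 57820 gene IDs. Within 0.001, 100% of the normalized values came out as whole reads once a factor per library was removed, which gives 60721187 to 88482001 reads in genes per library.

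Genes that reached a normalized count of 10 in 3 or more libraries were tested (17514; 4 left out). The values were fitted as log2(value + 1) in limma 3.58.1 (R 4.3.3, trend, 2-sided) over all 9 libraries, with Benjamini-Hochberg adjustment over all genes tested. Fold changes are on this log2(value + 1) scale, which understates changes of low genes. FPKM was used to set levels of different genes side by side.

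The members and gene lists were chosen with earlier results of these data known. The named members are the 12 largest rises and falls at 1.5 µM that passed without overlap, the next 4 of each sign at 0.5 µM, the 4 of each sign between the doses, the 6 highest by FPKM, a list of members with known roles, and the 5 on either side of the level of 1000. The splits by chromosome 19 and by finger number, ZNF236, ZNF543 and the members named only in runs were chosen after their values were seen. Protein classes come from the translated coding models of GENCODE 29 in place of RefSeq proteins. Fingers were matched by pattern, and KRAB by a profile built from 230 matches in those models (E-value under 0.001), chosen after a plain pattern had missed ZNF10. Promoters are from RefSeq. The alternatives were pseudocounts of 0.1 and 5, no filter and a minimum of 50, FPKM as log2(FPKM + 0.1) with a minimum of 0.5 in 3 libraries, no variance trend, upper-quartile and TMM scaling, library weights, the replicate number as a block, the 6 libraries compared alone, member levels of 500 and 2000, each library left out, and edgeR 4.0.16 (quasi-likelihood) and DESeq2 1.42.0 on the whole reads. Leaving out the 3 libraries high in H19 and setting the level on DMSO libraries alone were added after the data were seen. Only the limma fit was run on simulated counts, for 1.5 µM against DMSO and with the same spread setting for all genes. The outcome is not given here.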

Additional observations from a re-analysis of the deposited data

How the results depend on the processing

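With edgeR and DESeq2 on the recovered reads, 51.03% of the members were higher at 0.5 µM and 54.3% at 1.5 µM, and all alternatives kept the counts against DMSO within 1.5 times. The lowest shares higher came from FPKM values (40.7% and 45.3%). The median member at 0.5 µM was 0.12 with FPKM, 0.10 with upper-quartile scaling and 0.12 with a level of 2000, and 0.065 for ZNF genes with a DMSO mean of at least 1000. At 1.5 µM it was 0.13, 0.13 and 0.17, 0.20 with a level of 500, 0.088 with the DMSO level, and 0.16 to 0.19 with 1 library left out. The share of members higher at 1.5 µM than at 0.5 µM was 0.823% with FPKM, 4.53% without trend, 21.4% with library weights, 2.47% with the 6 libraries alone, 0% without the 3 libraries high in H19, and 1.23% to 11.9% with 1 left out. The share lower was 2.06% with FPKM, 13.6% with weights, 3.29% with 6 libraries, 0.412% without the 3, and 3.29% to 8.23% with 1 left out, and the median difference was 0.0040 with FPKM. The cause was not tested. Each group has 3 libraries, which limits how small a difference can be called.

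Members that changed sign had not passed at that dose. At 0.5 µM, ZNF281 was -0.028 with FPKM, -0.051 with upper-quartile scaling, -0.015 with weights and -0.032 to 0.032 with 1 library left out. ZNF335 was -0.027, -0.025, -0.0015 and -0.022 to 0.062 in that order, and -0.022 without the 3 libraries high in H19. ZNF131 was -0.0018 with weights and -0.0021 to 0.16 with 1 left out, ZNF207 -0.038 to 0.0025 and ZNF346 -0.085 to 0.032 (0.032 without the 3). With FPKM, ZNF644 was 0.024 and ZNF706 -0.043. At 1.5 µM with FPKM, ZNF24 was -0.049, ZNF335 -0.038, ZNF644 0.0074 and ZNF706 -0.060. With upper-quartile scaling, ZNF24 was -0.041, ZNF281 -0.0011 and ZNF335 -0.027. ZNF207 was 0.010 with weights, 0.029 without the 3 and -0.016 to 0.012 with 1 left out, and ZNF24 -0.020 to 0.028.

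Replicate numbers did not pair the libraries: deviations from the group means of same-numbered libraries correlated at -0.385 to 0.131, and not every library correlated best with its own number. With the replicate block, 51.03% of members were higher and 26.3% lower at 0.5 µM, and 53.9% and 27.6% at 1.5 µM, and between the doses 6.58% and 4.53%. The block ended the calls of ZNF518B at 1.5 µM (adjusted p = 0.0533) and ZNF28 between the doses (0.0526), and ZNF24 passed with it at 0.5 µM (0.0363).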

Other observations

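Among the ZNF genes under the level of 1000, too, more rose than fell. Of the 226, 225 were tested, and 91 of these rose and 55 fell at 0.5 µM (40.4% and 24.4%, median log2 fold change 0.13), beside 35.3% and 34.7% of all genes tested. At 1.5 µM, 109 rose and 65 fell (48.4% and 28.9%, median 0.20, beside 36.9% and 36.2% of all genes), from -4.32 to 2.48. Among them, 20 rose and 13 fell at least 2-fold at 1.5 µM, together 14.7%, which lies between the 6.996% of the 243 well-expressed ZNF genes and the 18.8% of all genes tested.

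Other zinc finger families (ZBTB, ZSCAN, ZKSCAN, ZFP, KLF, SP, EGR, GLI, ZIC, IKZF, ZEB and PRDM) gave 124 genes. Of these, 53 were higher and 42 lower at 0.5 µM (42.7% and 33.9%, median 0.06). At 1.5 µM, 53 and 44 were so (42.7% and 35.5%, median 0.09). All genes tested gave 35.3% and 34.7%, and 36.9% and 36.2%. The 63 of the 124 with a mean of at least 1000 divided 32 to 17 at 0.5 µM (50.8% and 27.0%, median 0.16). At 1.5 µM they divided 30 to 19 (47.6% and 30.2%, median 0.09). All tested genes with such a mean gave 44.6% and 31.9%, and 45.4% and 35.1%. At 0.5 µM the values of the 63 are close to those of the well-expressed ZNF genes (51.03% and 26.7%, median 0.16). The SCAN box, a domain by which zinc finger proteins pair with each other, was found in 15 of the 243 ZNF members. Of the 10 that also carry KRAB, 5 rose and 4 fell at 1.5 µM (median 0.03). Of the 5 without KRAB, ZNF174, ZNF444, ZNF232, ZNF24 and ZNF397, 2 rose and 2 fell (median 0.010). At that dose 36.9% of all genes tested rose and 36.2% fell.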
